A study of Mus musculus with 16 samples.

Results

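The NF-κB genes described here include the 5 genes of the subunits of this transcription factor, Nfkb1, Nfkb2, Rel, Rela and Relb. With them are 5 genes grouped as inhibitors, Nfkbia, Nfkbie, Nfkbiz, Nfkbid and Tnfaip3, although Nfkbiz encodes a co-activator of some genes. All 10 were chosen by symbol and are among the 20200 genes of the deposited count table. All 10 are also among the 11998 genes tested after a filter on low counts. The data are bulk RNA-seq of 4 myeloid populations sorted from the tissue between tendon graft and bone of young adult male C57BL/6 mice after anterior cruciate ligament reconstruction (ACLR), a model in which a flexor tendon graft replaces the ligament. CD9+ macrophages (Ly6G-, CD11b+, F4/80+, CD9+), CX3CR1+ macrophages (Ly6G-, CD11b+, F4/80+, CX3CR1+, CD9-), F4/80- myeloid cells (Ly6G-, CD11b+, F4/80-) and Ly6G+ neutrophils (Ly6G+, Ly6C+) were sorted from live, lineage-negative CD45+ cells on days 1 and 14 after surgery. All 4 populations came from operated mice of this strain, which received buprenorphine against pain after surgery, and no gene was altered. Each of the 8 groups has 2 libraries, each from a pool of mice, so that p-values measure the spread between pools of cells. The mice of the study were too few for a separate pool per library, so that libraries shared mice, whereas the tests took them as independent.

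NF-κB is a dimer of Rel family proteins that is held in the cytoplasm by inhibitors of the IκB family until signals from cytokine and Toll-like receptors lead to their degradation. The freed dimer enters the nucleus, where it binds κB motifs and activates inflammatory genes together with genes of its own inhibitors, among them Nfkbia (IκBα) and Tnfaip3 (A20), which forms a negative feedback loop. In neutrophils and macrophages this pathway is known for driving cytokines, chemokines and survival factors early in inflammation.

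Total counts lay between 9233952 and 19814119 per library, and the counts of a member in a library between 68, for Relb in F4/80- cells, and 26484, for Nfkbia in neutrophils. Ly6g was at 81.7 to 286 CPM (read counts relative to library size, scaled with TMM factors) in neutrophils and at 10.1 CPM or less elsewhere, and Adgre1, which encodes F4/80, was at 120 to 217 CPM in both macrophage populations against 8.43 to 13.8 CPM in F4/80- cells. Cd9 was at 142 to 184 CPM in CD9+ and at 6.5 to 21.1 CPM in CX3CR1+ macrophages, although its mRNA was highest in neutrophils (346 to 678 CPM). Markers of other cells were present in some sorts. The 7 neutrophil markers summed to 11840 to 15857 CPM in F4/80- cells and to 2318 to 7656 CPM in CD9+ macrophages, against 31818 to 55100 CPM in neutrophils, and the 4 eosinophil markers summed to 5826 to 9400 CPM in CD9+ macrophages on day 14 against 491 to 562 CPM on day 1.

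Libraries of a pair were less alike in 2 of the 8 groups. The difference between the 2 libraries in log2 CPM had an SD over all tested genes of 0.91 in CD9+ macrophages and of 0.62 in neutrophils on day 1, against 0.38 to 0.54 in the other 6 groups. In neutrophils on day 1 all 10 members were higher in replicate 2, by 1.17 times for Rela to 2.40 times for Tnfaip3, and the neutrophil markers summed to 50528 CPM in replicate 1 and 31818 CPM in replicate 2. In CD9+ macrophages on day 1, 9 of the 10 members were higher in replicate 2, by up to 2.04 times for Nfkb2, and the neutrophil markers summed to 7165 CPM in replicate 1 and 2318 CPM in replicate 2. The part of these marker differences in the members' values was not tested. Calls of members that change without 1 of these libraries are named below.

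The members lie on 8 chromosomes of the mm10 assembly. Nfkb1 lies on chr3:135584655-135691547 (minus strand), Relb on chr7:19606217-19629438 (minus), Nfkbid on chr7:30421732-30428746 (plus), Tnfaip3 on chr10:19000910-19015657 (minus) and Rel on chr11:23736847-23770970 (minus). Nfkbia lies on chr12:55489410-55492647 (minus), Nfkbiz on chr16:55811375-55838899 (minus), Nfkbie on chr17:45555703-45563169 (plus), Rela on chr19:5637483-5648130 (plus) and Nfkb2 on chr19:46304737-46312090 (plus). The exons of Nfkb2 overlap exons of Psd and AC114539.1 on the opposite strand, over 299 and 531 bases, and whether the counting used the strand was not given in the sources used here. The exons of the other 9 members overlap no other gene of the annotation.

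Promoter windows of 7 members (all but Nfkb1, Relb and Nfkbiz) were found in the RefSeq table of assembly GRCm38.p6, 12 windows of 300 bases with 250 bases before and 50 after a start site. The κB consensus was searched on both strands, counting overlapping matches. At least 1 window held a match in 6 of the 7 members, against 9.55% of 26994 genes, and 8 of the 12 windows did, against 8.46% of 32817 windows. A match is a run of letters and no evidence of binding. The windows of Nfkbia and Tnfaip3 are shown because these genes had the largest changes over time, that of Nfkb2 because it holds 3 matches, and that of Rela as the member without any, with matches in capitals, 5′ to 3′ on the strand of the gene.
Nfkbia, chr12:55492598-55492897, minus strand: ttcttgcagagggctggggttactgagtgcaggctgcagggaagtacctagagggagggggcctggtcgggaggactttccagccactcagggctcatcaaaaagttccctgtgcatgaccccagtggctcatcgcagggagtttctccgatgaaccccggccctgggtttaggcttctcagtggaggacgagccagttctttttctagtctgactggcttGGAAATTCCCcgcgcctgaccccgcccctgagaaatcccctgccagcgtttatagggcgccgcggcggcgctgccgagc
Tnfaip3, chr10:19015361-19015660, minus strand: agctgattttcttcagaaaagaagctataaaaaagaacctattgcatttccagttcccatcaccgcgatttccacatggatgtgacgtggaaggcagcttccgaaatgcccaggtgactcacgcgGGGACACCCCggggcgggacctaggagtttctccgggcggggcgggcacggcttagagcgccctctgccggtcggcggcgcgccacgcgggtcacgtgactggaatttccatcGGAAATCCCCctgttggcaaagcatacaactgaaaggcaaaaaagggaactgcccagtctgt
Nfkb2, chr19:46304487-46304786, plus strand: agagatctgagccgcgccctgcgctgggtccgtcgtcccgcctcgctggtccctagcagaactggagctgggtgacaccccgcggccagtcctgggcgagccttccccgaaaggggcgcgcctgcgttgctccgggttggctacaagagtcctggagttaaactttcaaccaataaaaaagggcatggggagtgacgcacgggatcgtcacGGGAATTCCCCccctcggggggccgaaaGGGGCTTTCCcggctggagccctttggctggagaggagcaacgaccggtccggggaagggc
Rela, chr19:5637291-5637590, plus strand: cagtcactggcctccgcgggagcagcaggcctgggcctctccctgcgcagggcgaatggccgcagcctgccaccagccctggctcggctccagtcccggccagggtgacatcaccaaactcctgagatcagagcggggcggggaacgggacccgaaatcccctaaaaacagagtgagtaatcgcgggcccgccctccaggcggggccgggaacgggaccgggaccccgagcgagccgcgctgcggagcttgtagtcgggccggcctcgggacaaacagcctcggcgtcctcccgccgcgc
In Nfkbia the match started 29 bases before the start site. In the windows shown, Tnfaip3 had matches 125 and 12 bases before the start site. Nfkb2 had 2 overlapping matches 39 and 38 bases before it and another at 11 bases. The start site of this Tnfaip3 window and both its matches lie within the span of the gene given above. Another window of Tnfaip3 held 0 matches. Other windows of Nfkb2 held matches 236 bases before and 10 bases after one start site, and 225 bases before another.

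Among the members, Nfkbia had the highest level per length in 14 of the 16 libraries and Nfkbid in the 2 libraries of neutrophils on day 14. Levels per length were compared as RPKM, with the merged exon length of each gene. Nfkbia, the inhibitor that resets the pathway after a signal, lay between 55.0 and 1444 RPKM, at or above 95.1% of the tested genes in each library. Relb, the subunit of the noncanonical pathway, was the lowest member in 15 of the 16 libraries, between 1.43 and 29.8 RPKM, and Nfkb1 was the lowest in the other. Rela, the main activating subunit, lay between 20.7 and 84.8 RPKM. The level of Nfkb1 per length depends on the annotation, since its merged exons span 12061 bases and its longest transcript 4149: its mean in neutrophils on day 1 was 24.6 RPKM with the first and 71.6 RPKM with the second.

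**Figure D1:**
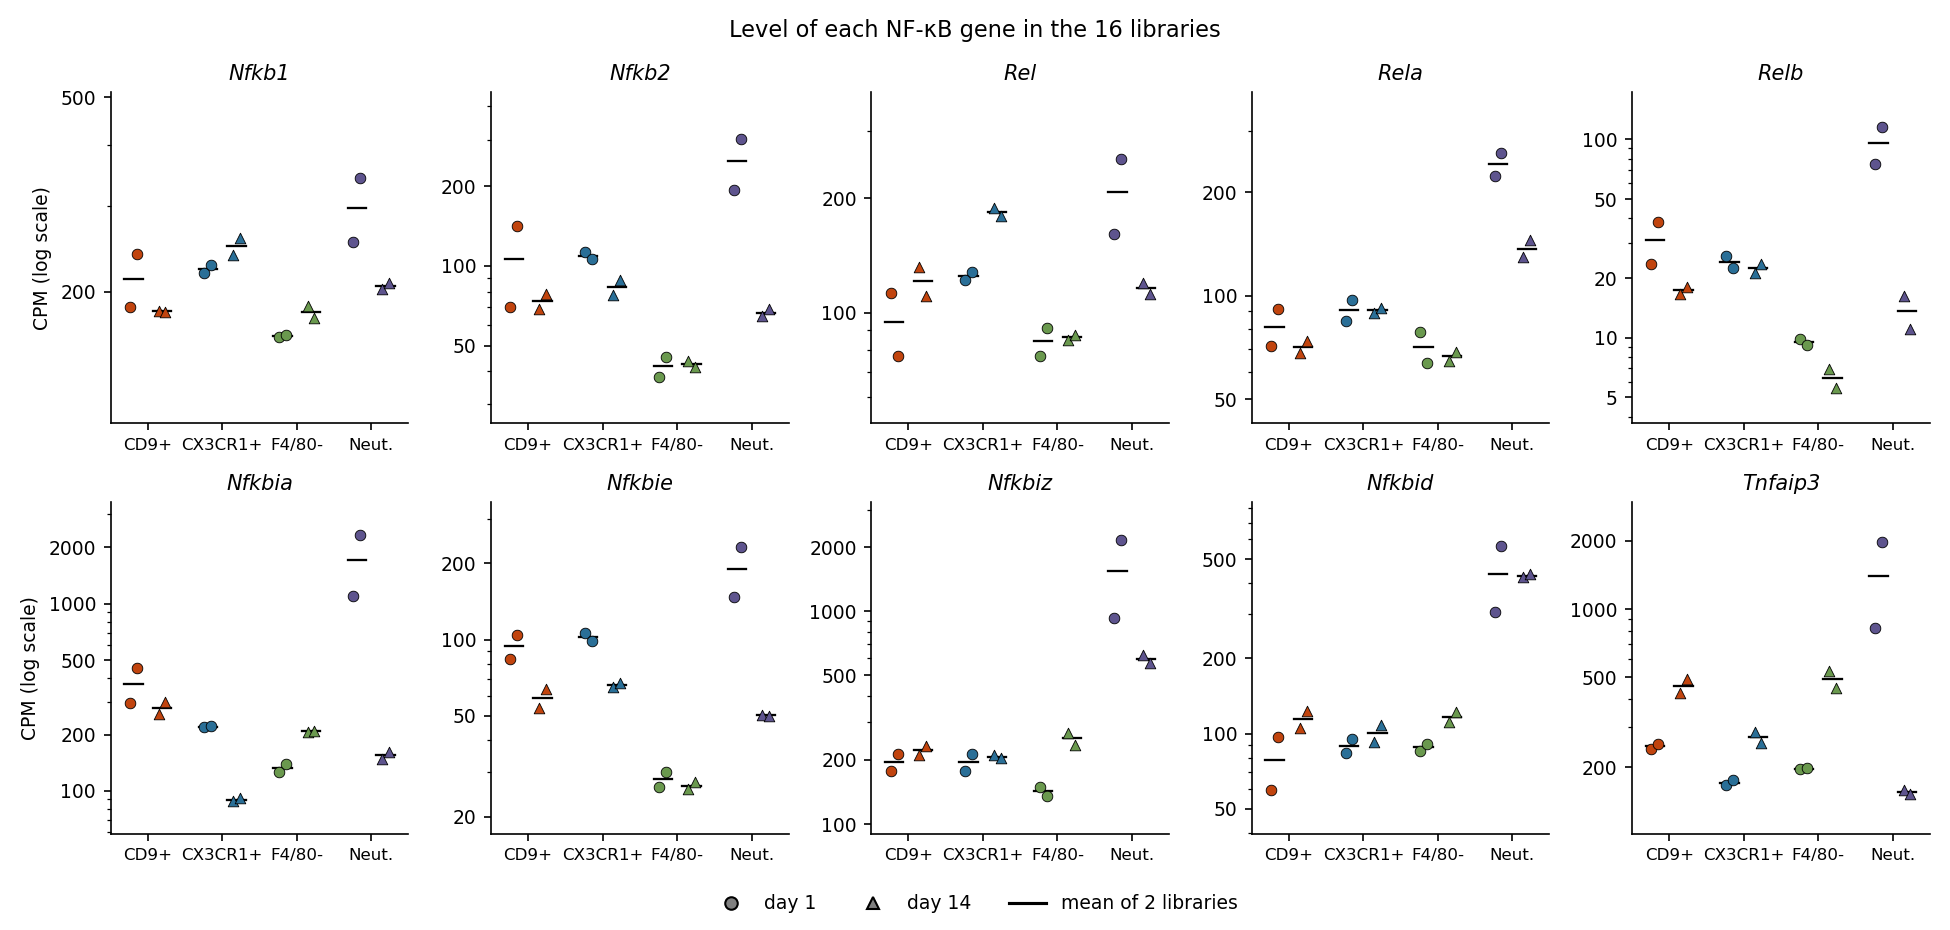
CPM of each member (log scale) in the 2 libraries of each population on day 1 (circles) and day 14 (triangles), with the mean of each pair as a line. For all 10 members (9 with scaling by library size only, the exception being Nfkb1) neutrophils have the highest mean of the 4 populations on day 1, and the Tnfaip3 level of neutrophils on day 14 (153 and 159 CPM) is the lowest of its 8 groups.

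The first question was how the NF-κB genes changed in neutrophils between days 1 and 14. Of the 10 members, 6 fell and 0 rose: Nfkb2, Relb, Nfkbia, Nfkbie, Nfkbiz and Tnfaip3. Calls rest on edgeR's quasi-likelihood test, with p-values adjusted by the Benjamini-Hochberg method over all genes tested, and require an adjusted p below 0.05 together with a log2 fold change of 1 or more in size. Over all genes tested, 10.9% were called lower and 3.15% higher. The median log2 fold change was -1.63 over the members and -0.02 over all genes tested. In bulk samples such as these, fewer cells of a type and less RNA per cell cannot be told apart.

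Nfkbia and Tnfaip3 had the largest falls among the members, followed by Relb. Nfkbia was at 1095 and 2325 CPM on day 1 and at 148 and 162 CPM on day 14. The groups were far apart although the day 1 libraries differed 2.12 times, and the level fell by 3.46 ± 0.28 (SE) on the log2 scale, an 11.0-fold decrease (edgeR adjusted p = 4.1e-07). Tnfaip3, a ubiquitin-editing enzyme that shuts off signalling upstream of the IκB kinase, was at 823 and 1977 CPM on day 1 and at 159 and 153 CPM on day 14. The level fell by 3.17 ± 0.28 on the log2 scale, an 8.99-fold decrease (edgeR adjusted p = 9.6e-07). Nfkbie (IκBε), a second cytoplasmic inhibitor, was at 147 and 232 CPM and then at 50.5 and 50.01 CPM. Its fall was 3.78-fold, 1.92 ± 0.19 on the log2 scale in size (edgeR adjusted p = 2.8e-06). With each library left out in turn, the log2 fold change stayed between -3.90 and -2.82 for Nfkbia, between -3.66 and -2.41 for Tnfaip3 and between -2.21 and -1.55 for Nfkbie, and all remained called.

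The nuclear IκB proteins, which act on NF-κB at promoters, differed from each other. Nfkbiz (IκBζ), a co-activator of secondary response genes, was at 928 and 2167 CPM on day 1 and at 626 and 571 CPM on day 14. The day 14 libraries lay below both day 1 libraries, and Nfkbiz fell by 1.37 ± 0.26 on the log2 scale (edgeR adjusted p = 0.0012), but without replicate 2 of day 1 the log2 fold change was -0.64 and Nfkbiz was no longer called. Nfkbid (IκBNS) was at 308 and 563 CPM on day 1 and at 424 and 434 CPM on day 14. The day 14 values lay between those of day 1, and the log2 fold change was -0.02 ± 0.24 (edgeR adjusted p = 0.96).

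Of the subunits, the pair of the noncanonical pathway fell. Relb was at 75.6 and 116 CPM on day 1 and at 16.3 and 11.0 CPM on day 14, a 7.03-fold fall of 2.81 ± 0.27 on the log2 scale in size (edgeR adjusted p = 2.1e-06). Nfkb2, which encodes the precursor p100 and its product p52, was at 194 and 302 CPM and then at 64.8 and 68.5 CPM, a log2 fold change of -1.90 ± 0.26 (edgeR adjusted p = 7.5e-05). Both were called with each library left out in turn. The subunits of the canonical pathway differed less between the days. Rel, which encodes c-Rel, was at 161 and 253 CPM and then at 120 and 112 CPM, with a log2 fold change of -0.84 ± 0.20 (edgeR adjusted p = 0.0056). Rela was at 223 and 261 CPM and then at 129 and 145 CPM, with a log2 fold change of -0.82 ± 0.15 (edgeR adjusted p = 0.00082). Nfkb1, the gene of p105 and p50, was at 253 and 342 CPM and then at 203 and 208 CPM, with a log2 fold change of -0.53 ± 0.15 (edgeR adjusted p = 0.014). These 3 subunits had adjusted p-values under 0.05 but fold changes below the threshold, and without replicate 1 of day 1 the log2 fold change of Rel was -1.12 and Rel was called.

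Other measures moved with these falls. The summed level of 15 immediate early and stress genes, which can rise when tissue is digested and sorted, was 16213 to 19240 CPM in neutrophils on day 1 and 9788 to 10291 CPM on day 14, and 8 of the 15 fell and 0 rose, among them Hspa1a, Hspa1b and Ier3. The 7 macrophage and monocyte markers summed to 828 to 986 CPM on day 1 and to 544 to 569 CPM on day 14, and Ly6g was at 125 and 81.7 CPM and then at 267 and 286 CPM. The part of these differences in the members' results was not tested.

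**Figure D2:**
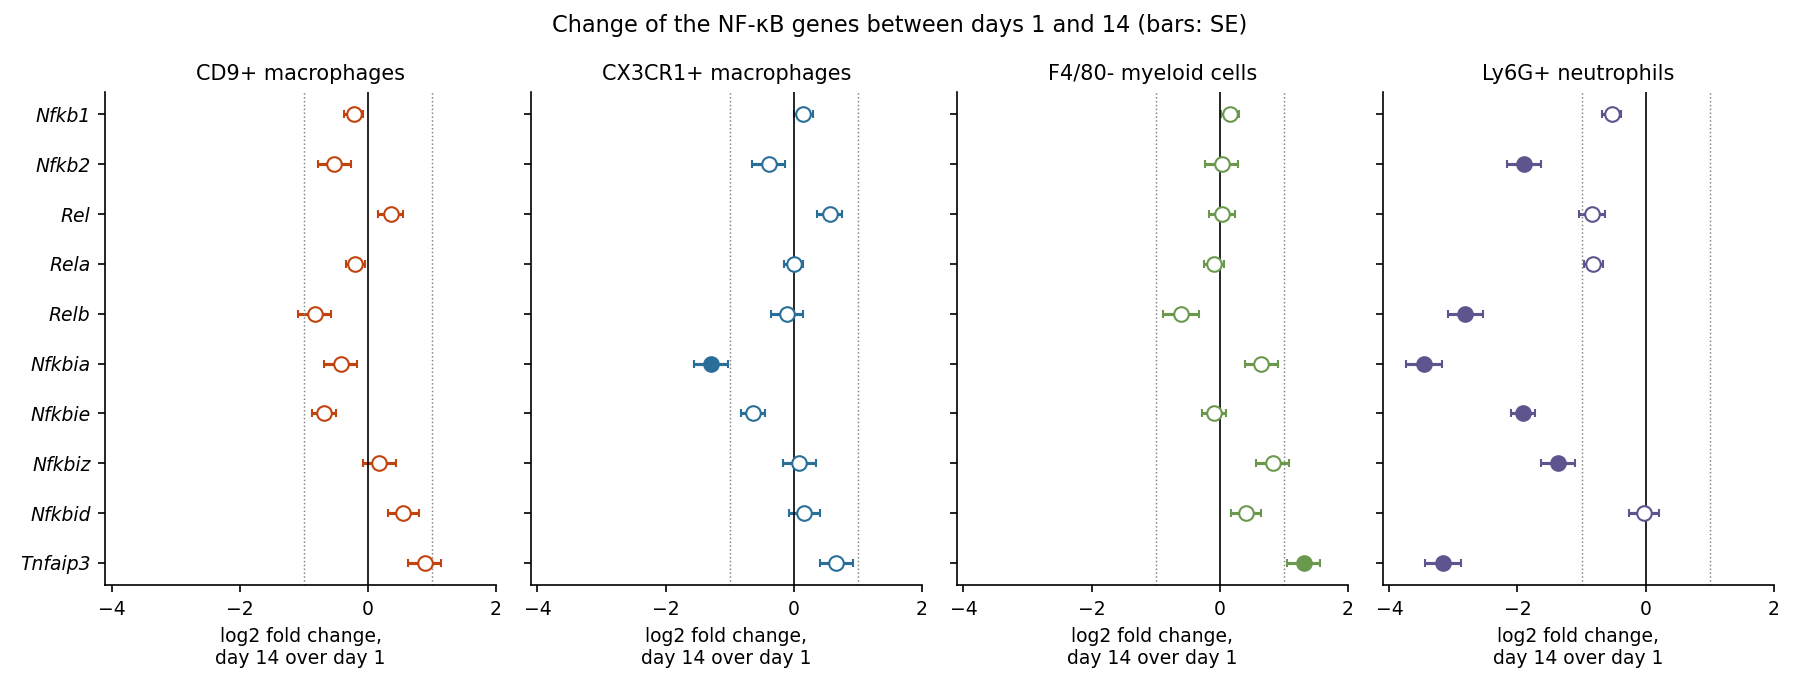
Log2 fold change of each member on day 14 over day 1 in the 4 populations, with SE as bars, filled where called and open where not, and dotted lines at the threshold of 1. The 6 called members of neutrophils lie between -3.46 and -1.37, whereas Nfkbia of CX3CR1+ macrophages (-1.29) and Tnfaip3 of F4/80- cells (1.31) are the only called members in the other populations.

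In CD9+ macrophages 0 of the 10 members passed both thresholds over time, against 4.75% of the genes tested called higher and 3.48% lower. By edgeR 4 members had an unadjusted p under 0.05 and 3 an adjusted p under 0.05, and DESeq2 also called 0. The 3 were Tnfaip3, Relb and Nfkbie. Tnfaip3 was at 241 and 255 CPM and then at 426 and 491 CPM, with a log2 fold change of 0.89 ± 0.26 (edgeR adjusted p = 0.030). Relb was at 23.5 and 38.4 CPM and then at 16.7 and 18.0 CPM, with a log2 fold change of -0.83 ± 0.26 (edgeR adjusted p = 0.039). Nfkbie was at 83.9 and 105 CPM and then at 53.8 and 63.6 CPM, with a log2 fold change of -0.68 ± 0.18 (edgeR adjusted p = 0.020). Without replicate 1 of day 1 Relb was called, at -1.14 on the log2 scale, while the log2 fold change of Nfkb2, not called at -0.52, ranged from -0.95 without replicate 1 to 0.08 without replicate 2 of day 1. With scaling by library size only Tnfaip3 was called, at 1.08, as it was with a block for same-numbered libraries of a day, at 1.09 (edgeR adjusted p = 0.017). With each library left out in turn its log2 fold change was between 0.79 and 1.00, and Tnfaip3 was not called. Scaling by library size moved the median of all genes by 0.19 in this comparison and the calls over all genes from 570 higher and 418 lower to 810 higher and 300 lower. The median log2 fold change was -0.21 over the members and 0.00 over all genes. The sum of the eosinophil markers given above differed between the same days, and its part was not tested.

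In CX3CR1+ macrophages 1 of the 10 members fell and 0 rose, against 3.47% and 2.39% of the genes tested. The gene was Nfkbia, at 219 and 221 CPM on day 1 and at 88.6 and 91.2 CPM on day 14. The libraries of each day were nearly equal, and Nfkbia fell 2.45-fold, by 1.29 ± 0.26 on the log2 scale (edgeR adjusted p = 0.0042). Against a fold change of 1.5 its adjusted p was 0.055. Nfkbie was at 106 and 98.5 CPM and then at 64.7 and 67.1 CPM, with a log2 fold change of -0.64 ± 0.18 (edgeR adjusted p = 0.032). Rel was at 122 and 128 CPM and then at 189 and 180 CPM, a log2 fold change of 0.56 ± 0.20 that did not pass (edgeR adjusted p = 0.078). The other 7 members had log2 fold changes between -0.39 and 0.67. The neutrophil markers summed to 1019 and 1070 CPM on day 1 and to 444 and 525 CPM on day 14 in these cells, with 3 of 7 lower and 1 higher, and the 4 dendritic cell markers to 8.8 and 9.0 CPM and then to 25.01 and 31.5 CPM, with 3 of 3 tested higher. The 3 platelet markers summed to 14.1 and 44.7 CPM and then to 2.3 and 2.6 CPM, and the 4 stromal markers to 0.9 and 1.4 CPM and then to 2.3 and 79.8 CPM. The part of these differences was not tested.

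In F4/80- myeloid cells 1 of the 10 members rose and 0 fell, against 1.01% and 2.24% of the genes tested. Tnfaip3 was at 197 and 198 CPM on day 1 and at 532 and 447 CPM on day 14, all day 14 values above day 1. It rose 2.48-fold, by 1.31 ± 0.26 on the log2 scale (edgeR adjusted p = 0.0077). The call did not hold without either day 1 library (log2 fold changes 1.32 and 1.32, edgeR adjusted p = 0.082 and 0.067) or without replicate 1 of day 14 (1.18, edgeR adjusted p = 0.080). Nfkbiz was at 149 and 135 CPM and then at 269 and 236 CPM, with a log2 fold change of 0.83 ± 0.26 (edgeR adjusted p = 0.078), and Nfkbia was at 126 and 140 CPM and then at 206 and 209 CPM, with a log2 fold change of 0.65 ± 0.26 (edgeR adjusted p = 0.17). Neither passed, and with a block for same-numbered libraries of a day Nfkbiz was called, at 1.03 (edgeR adjusted p = 0.029). The 4 basophil and mast cell markers summed to 689 to 859 CPM on day 1 and to 1281 to 1465 CPM on day 14 in these cells, and the part of this was not tested.

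Whether the change over time differed among the 4 populations was tested with an F test of the interaction in the same model. It passed for 8 of the 10 members, against 14.7% of the genes tested. The exceptions were Nfkb1 (edgeR adjusted p = 0.067) and Nfkbid (edgeR adjusted p = 0.55). Tnfaip3 had the smallest adjusted p (8.6e-06 by edgeR): its log2 fold change was 0.89, 0.67 and 1.31 in CD9+ macrophages, CX3CR1+ macrophages and F4/80- cells and -3.17 in neutrophils. For Nfkbia (edgeR adjusted p = 2.7e-05) the log2 fold changes were -0.42, -1.29, 0.65 and -3.46 in the same order. Without replicate 2 of the day 14 neutrophils 5 members passed. Between the macrophage populations alone, a call needed an adjusted p under 0.05 and changes that differed by 1 or more on the log2 scale. By edgeR and by DESeq2 0 of 10 members were called, against 2.28% of the genes tested by edgeR. Without the threshold on the size, 0 of 10 had an edgeR adjusted p under 0.05. At an unadjusted p under 0.05 there was 1 of 10, namely Nfkbia. For Nfkbia this difference was 0.87 ± 0.36 on the log2 scale (edgeR adjusted p = 0.24).

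The ratio of transcripts of 2 cytoplasmic inhibitors to those of the subunits was taken as the summed RPKM of Nfkbia and Nfkbie over that of the 5 subunits. Protein was not measured, and Nfkbib, another inhibitor named below, was left out. In neutrophils the 2 libraries of day 1 had ratios of 4.12 and 6.26, and those of day 14 ratios of 1.16 and 1.20. In CX3CR1+ macrophages it was 1.84 and 1.76 and then 0.79 and 0.78, the only group in which the subunit transcripts exceeded those of the 2 inhibitors. In CD9+ macrophages it was 2.80 and 3.14 and then 2.39 and 2.74. In F4/80- cells the order of the days was the opposite, with ratios of 1.44 and 1.64 followed by 2.30 and 2.35. The days did not overlap in any of the 4 populations, but with 2 libraries a day an exact two-sided permutation test cannot go below p = 0.33, and no p-value is given. With the longest transcript in place of merged exons all ratios were lower, for example 3.12 and 4.75 in neutrophils on day 1 and 0.55 and 0.53 in CX3CR1+ macrophages on day 14, and those of neutrophils on day 14 (0.82 and 0.85) and of 1 of the 2 libraries of F4/80- cells on day 1 (0.97) also lay below 1. The direction over time was the same in each population.

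**Figure D3:**
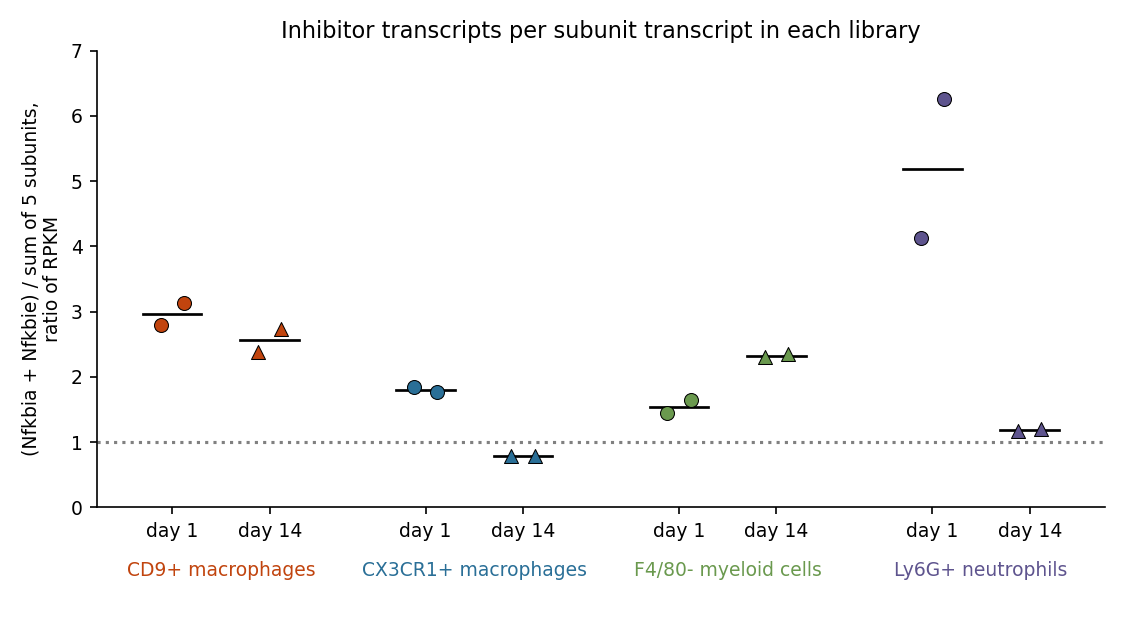
Ratio of summed RPKM of Nfkbia and Nfkbie to that of the 5 subunits in each library, with the mean of each pair as a line and a dotted line at 1. The neutrophil libraries go from 4.12 and 6.26 on day 1 to 1.16 and 1.20 on day 14, those of F4/80- cells from 1.44 and 1.64 to 2.30 and 2.35.

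The second question was how the populations differed within a day. The level of each of the 10 members differed among the 4 populations on day 1 (F test, edgeR adjusted p = 0.00056 or less) and on day 14 (edgeR adjusted p = 0.032 or less, with 8 or 9 members passing when any day 14 library was left out and 9 with DESeq2 size factors), against 80.9% and 77.1% of the genes tested, so that such differences were common. On day 1 neutrophils had the highest mean CPM for all 10 members (for Nfkb1, CX3CR1+ macrophages with scaling by library size only). F4/80- cells had the lowest for 8 (for Rel and Rela among these, CD9+ macrophages with scaling by library size only). CD9+ macrophages were lowest for Nfkbid and CX3CR1+ macrophages for Tnfaip3. On day 14 CX3CR1+ macrophages were highest for Nfkb1, Nfkb2, Rel, Relb and Nfkbie, neutrophils for Rela, Nfkbiz and Nfkbid, CD9+ macrophages for Nfkbia and F4/80- cells for Tnfaip3. Scaling by library size only kept 13 of the 20 orders.

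Neighbours in these orders often did not differ beyond their spread. Of the 60 pairs of neighbouring populations (3 per member and day), 13 were called, against 17.0% of such pairs over all genes. The share of the members was thus near that of all genes. The latter was taken over both days together, so that the counts per day have no such share beside them. On day 1, 10 of 30 were called: neutrophils above the next population for Nfkb2, Rela, Relb, Nfkbia, Nfkbiz, Nfkbid and Tnfaip3, and F4/80- cells below the next for Nfkb2, Relb and Nfkbie. The step from neutrophils to the next population was 0.41 ± 0.15 for Nfkb1, 0.73 ± 0.20 for Rel and 0.89 ± 0.18 for Nfkbie on the log2 scale, under the threshold on the fold change. On day 14, 3 of 30 were called, neutrophils above F4/80- cells for Relb (1.11 ± 0.28), Nfkbiz (1.24 ± 0.26) and Nfkbid (1.88 ± 0.24).

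CD9+ macrophages and neutrophils were compared directly. On day 1, 9 of the 10 members were lower in CD9+ macrophages and 0 higher, against 21.7% and 27.9% of the genes tested. The exception was Nfkb1, at 186 and 239.5 CPM in CD9+ macrophages and 253 and 342 CPM in neutrophils, with a log2 fold change of -0.48 ± 0.15 (edgeR adjusted p = 0.0085). Nfkbiz had the largest difference, 178 and 214 CPM in CD9+ macrophages against 928 and 2167 CPM, a log2 fold change of -2.98 ± 0.28 (edgeR adjusted p = 2.5e-07). Tnfaip3 followed at -2.50 ± 0.27 (edgeR adjusted p = 1.2e-06), Nfkbid at -2.48 ± 0.25 (edgeR adjusted p = 5.6e-07) and Nfkbia at -2.20 ± 0.27 (edgeR adjusted p = 3.5e-06). The median was -1.60 over the members and 0.06 over all genes. Of the 15 immediate early and stress genes, 11 were lower and 1 was higher in CD9+ macrophages on day 1, and their part was not tested. Scaling by library size only moved the median of all genes by 0.33 and the calls over all genes from 3344 higher and 2601 lower to 4036 higher and 1881 lower, and 6 members were then lower, with Nfkb2 (-0.93), Rel (-0.78) and Nfkbie (-0.69) under the threshold. Without replicate 2 of the day 1 neutrophils the same 3 genes were not called (Nfkb2 -0.89, Rel -0.77 and Nfkbie -0.65). Without replicate 1 of the day 1 CD9+ macrophages Nfkb2 (-0.81) and Nfkbie (-0.86) were not called, and without replicate 2 of these Rel (-0.88) was not. Nfkbie lay at the threshold (-1.01) and was called in 4 of 11 other settings of the fit.

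On day 14, 1 of the 10 members was higher in CD9+ macrophages and 2 were lower, against 29.6% and 19.9% of the genes tested. Tnfaip3 was higher, at 426 and 491 CPM against 159 and 153 CPM in neutrophils, a log2 fold change of 1.56 ± 0.27 (edgeR adjusted p = 0.0001). The nuclear IκB genes remained lower: Nfkbid was at 106 and 123 CPM against 424 and 434 CPM, a log2 fold change of -1.91 ± 0.25 (edgeR adjusted p = 6.2e-06), and Nfkbiz at 211 and 233 CPM against 626 and 571 CPM, a log2 fold change of -1.43 ± 0.26 (edgeR adjusted p = 0.00021). Nfkb2, Rel, Relb and Nfkbie had log2 fold changes between 0.07 and 0.35 and did not pass the test. Rela was lower by 0.95 ± 0.15 on the log2 scale (edgeR adjusted p = 5.1e-05), just under the threshold on the fold change, and was called by DESeq2 (-1.02). Nfkbia was higher by 0.85 ± 0.26 (edgeR adjusted p = 0.0092), also under that threshold. With scaling by library size only, which moved the median of all genes by 0.49 and the calls over all genes from 3554 higher and 2386 lower to 4725 higher and 1314 lower, 2 members were higher (Tnfaip3 and Nfkbia) and 1 lower (Nfkbid).

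Between the macrophage populations 1 member was called, Nfkbia on day 14. On day 1, 0 of the 10 members were called by edgeR or DESeq2, 1 of them at an unadjusted p under 0.05, against 8.23% of the genes tested. This was Nfkbia, at 294 and 454 CPM in CD9+ and at 219 and 221 CPM in CX3CR1+ macrophages, a log2 fold change of 0.76 ± 0.26 (edgeR adjusted p = 0.058). Without replicate 1 of the day 1 CD9+ macrophages it was 1.04 and Nfkbia was called. Over all genes, scaling by library size only turned 763 higher and 225 lower into 613 higher and 501 lower. On day 14, 1 member was higher in CD9+ macrophages and 0 lower, against 9.65% and 4.55% of the genes tested. Nfkbia was at 257 and 300 CPM against 88.6 and 91.2 CPM, 3.10-fold higher, with a log2 fold change of 1.63 ± 0.26 (edgeR adjusted p = 0.00026). Tnfaip3 was at 426 and 491 CPM against 286 and 257 CPM, a log2 fold change of 0.76 ± 0.26 (edgeR adjusted p = 0.044), and Rel was at 132 and 111 CPM against 189 and 180 CPM, a log2 fold change of -0.60 ± 0.20 (edgeR adjusted p = 0.035). Nfkb1 was at 183 and 182 CPM against 238 and 257 CPM, a log2 fold change of -0.44 ± 0.15 (edgeR adjusted p = 0.037). These 3 stayed under the threshold on the fold change. Markers of other cells also differed on day 14. In CD9+ against CX3CR1+ macrophages the eosinophil markers summed to 5826 to 9400 CPM against 43.0 to 76.1 CPM, the neutrophil markers to 5329 to 7656 CPM against 444 to 525 CPM and the 4 basophil and mast cell markers to 209 to 251 CPM against 0.6 to 0.9 CPM, with 4 of 4, 5 of 7 and 4 of 4 called higher and 2 neutrophil markers lower. On day 1 as many were called higher and 1 neutrophil marker lower, with sums of 491 to 562 CPM against 17.0 to 46.0 CPM for eosinophil and 2318 to 7165 CPM against 1019 to 1070 CPM for neutrophil markers. Their part was not tested.

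**Figure D4:**
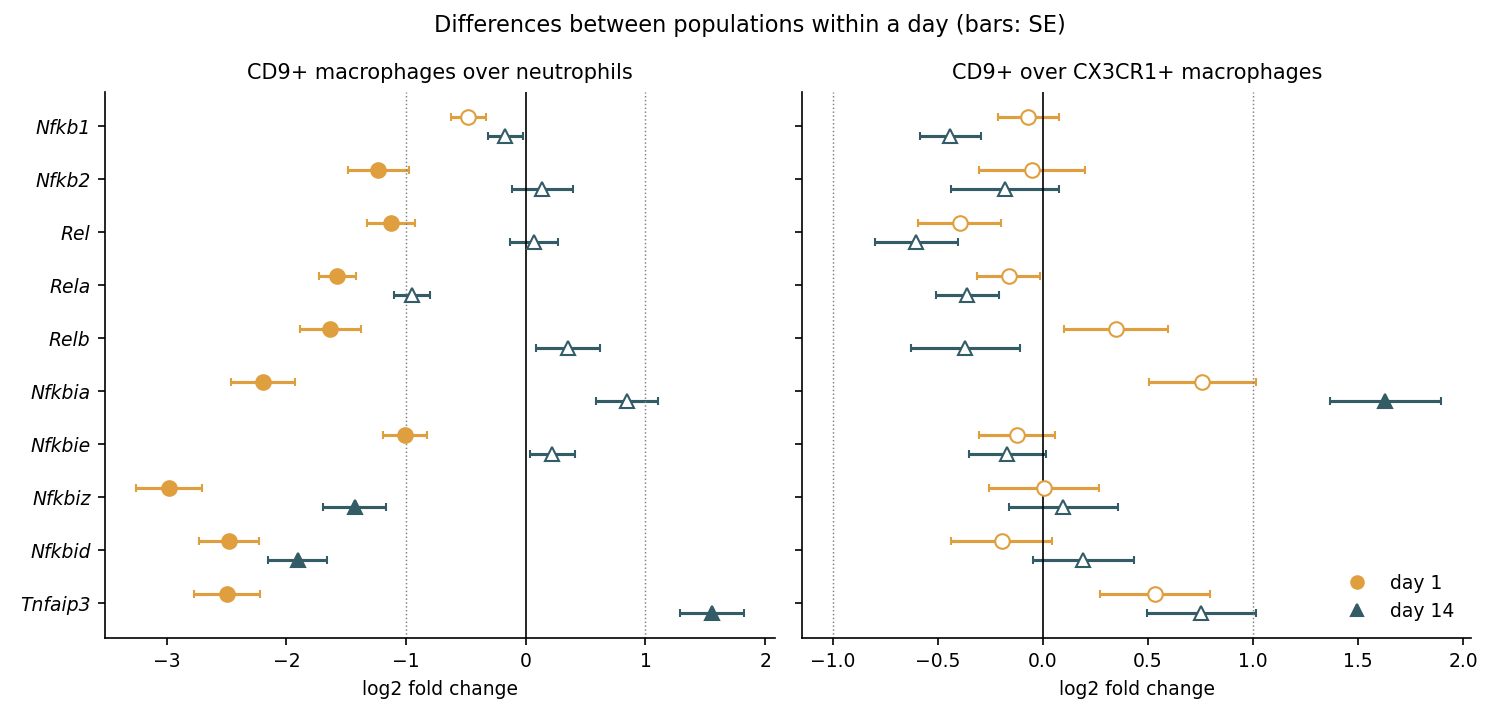
Log2 fold change of each member in CD9+ macrophages over neutrophils and over CX3CR1+ macrophages on days 1 and 14, with SE as bars, filled where called, and dotted lines at the threshold of 1. On day 1, 9 members are called lower than in neutrophils, whereas on day 14 Tnfaip3 lies above (1.56) and Nfkbiz (-1.43) and Nfkbid (-1.91) below.

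The rest of the pathway was read from 4 lists, of 10 kinases, 18 adaptors, 14 further inhibitors and 30 target genes, of which all but 1 target gene were tested. In neutrophils 1 of 10 kinases, 4 of 18 adaptors, 5 of 14 inhibitors and 21 of 29 target genes fell over time, and 0 of any list rose, against 10.9% of all genes tested called lower and 3.15% higher, so that the share of kinases was near that of all genes. Without replicate 1 of day 1 these numbers were 1, 4, 6 and 21, with 1 target gene rising, and without replicate 2 they were 1, 3, 3 and 20, with 1 kinase rising. The median log2 fold changes were -0.06, -0.24, -0.44 and -2.77, beside -0.02 over all genes. The kinase was Ikbke (IKKε), at 220 and 396 CPM on day 1 and at 24.7 and 21.9 CPM on day 14, a log2 fold change of -3.72 ± 0.24 (edgeR adjusted p = 4.6e-08). The catalytic and regulatory subunits of the canonical IκB kinase, Chuk, Ikbkb and Ikbkg, named here for their role, were not called. The adaptor Traf1, itself known as an NF-κB target, was at 61.6 and 184 CPM and then at 3.49 and 2.37 CPM, a log2 fold change of -5.40 ± 0.49 (edgeR adjusted p = 1.2e-06), and Birc3 (-1.62 ± 0.13) and Irak2 (-1.58 ± 0.21) also fell. Of the inhibitors, Tnip1, a partner of A20, was at 592 and 702 CPM and then at 118 and 111 CPM, a log2 fold change of -2.50 ± 0.14 (edgeR adjusted p = 1.8e-08), and Nfkbib (-1.42 ± 0.22) and Bcl3 (-1.39 ± 0.19) fell as well. Of the targets, Nos2, the inducible nitric oxide synthase, went from 548 and 676 CPM to 0 and 0.21 CPM. Il1a was at 202 and 542 CPM and then at 1.57 and 2.16 CPM, and Il23a at 39.4 and 101 CPM and then at 0.36 and 0.31 CPM.

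In the other populations most calls over time within the lists were target genes. In CD9+ macrophages 11 of 29 target genes fell and 4 rose over time, against 3.48% of all genes lower and 4.75% higher. Of the other lists, 0 of 10 kinases, 1 of 18 adaptors (Irak2, -1.04 ± 0.21) and 3 of 14 inhibitors were called. Of these inhibitors 2 fell, Bcl3 (-1.27 ± 0.20) and Tnip1 (-1.03 ± 0.14), and 1 rose, Otulin. Without replicate 1 of day 1, 10 target genes fell and 3 rose, 3 adaptors fell, and 1 kinase fell and 1 rose. Without replicate 2, 10 target genes fell and 2 rose, and 0 adaptors were called (Irak2 -0.62). Nos2 was at 203 and 285 CPM and then at 1.34 and 0.91 CPM, and Il1a at 65.4 and 67.7 CPM and then at 3.07 and 3.65 CPM. Vcam1, an adhesion molecule, rose from 21.4 and 11.2 CPM to 174 and 207 CPM (3.53 ± 0.36 on the log2 scale, edgeR adjusted p = 1.7e-05). In CX3CR1+ macrophages 7 target genes fell and 1 rose, against 3.47% and 2.39% of all genes. In F4/80- cells 5 fell and 1 rose, against 2.24% and 1.01%. The deubiquitinase Otulin rose in CD9+ macrophages (1.05 ± 0.20, but 0.96 and not called without replicate 1 of day 1), CX3CR1+ macrophages (1.40 ± 0.20) and F4/80- cells (1.13 ± 0.20). In CD9+ against CX3CR1+ macrophages the target genes numbered 10 higher and 1 lower on day 1, beside 763 and 225 of 11998 genes tested. On day 14 they numbered 7 higher and 5 lower, against 9.65% and 4.55% of all genes, and Otud7b, a further deubiquitinase, had log2 fold changes of 1.59 ± 0.22 on day 1 and 2.66 ± 0.24 on day 14, called on both. On day 14 Bcl3 (-1.20 ± 0.20) and Ikbkb (-1.01 ± 0.16) were lower in CD9+ macrophages.

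**Figure D5:**
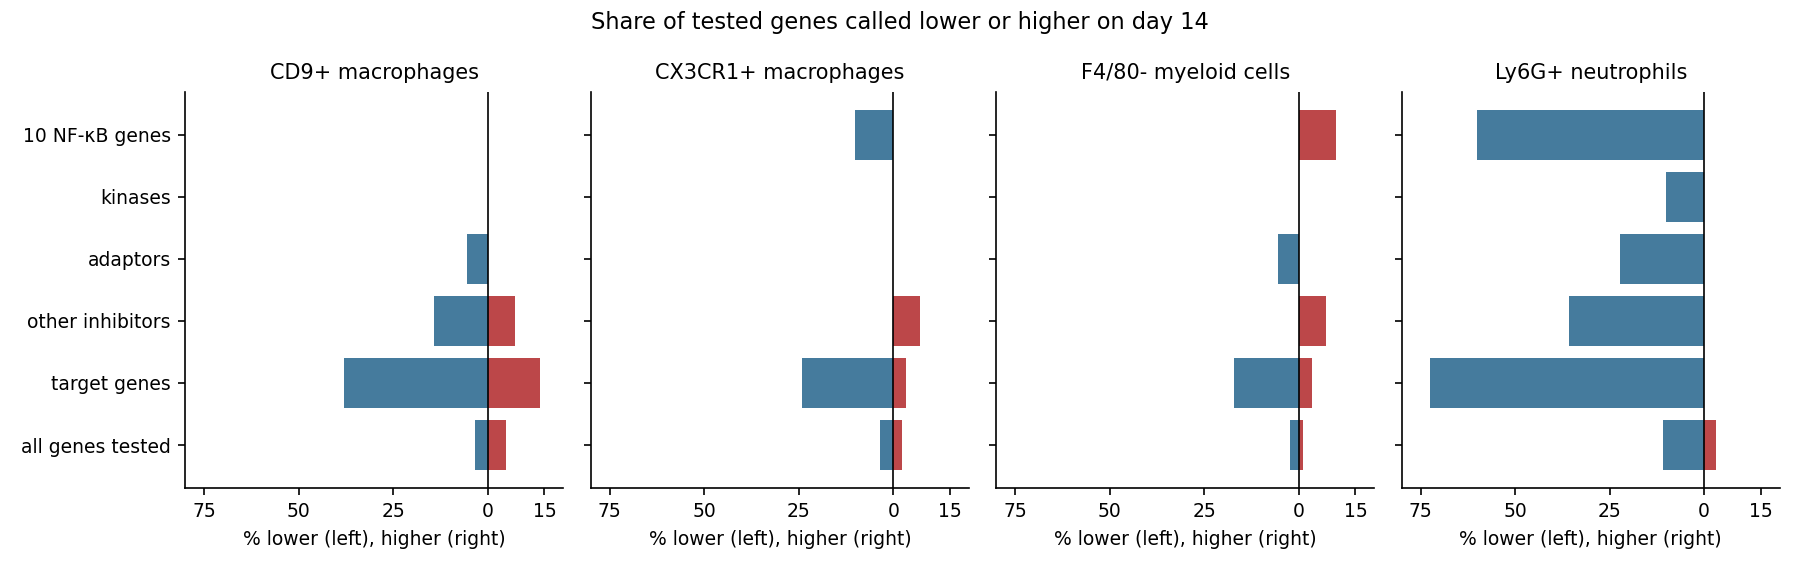
Percent of the tested genes of each list called lower (blue, left) or higher (red, right) on day 14 against day 1 in each population. In neutrophils 6 of the 10 NF-κB genes and 21 of 29 target genes were lower and 0 of either higher, and in the other 3 populations 1 member at most was called.

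Across the 8 group means the log2 CPM of the members correlated with each other to different degrees, as a description over 8 points that share libraries. Pearson's r had a median of 0.70 over the 45 pairs, was highest for Nfkb2 with Nfkbie (0.98) and lowest for Nfkbie with Nfkbid (0.31). The genes outside the set with the pattern most like Nfkb1 over the 8 groups were Dvl2 (r = 0.97), AC165953.2 (0.97), Trim25 (0.97), Rilpl2 (0.96) and Zbtb21 (0.95). Those most like Nfkbia were 1700017B05Rik (0.98), Sirt6 (0.97), Fbxl8 (0.97), Bhlhe40 (0.95) and Gpr55 (0.95). Over the 16 libraries Fbxl8 was at 0.71 and ranked 364, whereas 1700017B05Rik and Bhlhe40 held the first and second ranks for Nfkbia.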

How the data were processed

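Bulk RNA-seq libraries of 4 myeloid populations sorted by flow cytometry on 2 days were analysed, 16 in all with 2 per group, grouped by the submitters' sample labels. The deposited table holds raw gene counts: the authors trimmed the reads, aligned them with STAR to mm10 and counted them per gene of a Gencode annotation, with no normalization. Whether the counting used the strand is not given in the sources used here. Total counts were 9233952 to 19814119 per library, which limits the precision of low genes.

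Genes with a group mean of at least 3 CPM in at least 1 group were kept (11998 of 20200) and TMM factors were computed on them. All libraries entered a single fit with 8 group means and 8 residual degrees of freedom, made with edgeR 4.0.16 in R 4.3.3 (quasi-likelihood test, Benjamini-Hochberg adjustment over all genes tested). Calls needed an adjusted p below 0.05 together with a log2 fold change of 1 or more in size, whereas F tests over 3 contrasts needed the adjusted p alone. The script was tested on simulated data. RPKM used merged exon lengths of the Gencode annotation of mm10 in hand. Alternatives were edgeR with DESeq2 size factors, upper quartile or library size scaling, 3 other filters, replicate blocks, other fold thresholds, the compared libraries only, DESeq2 1.42.0, and leaving out each library. Counts of the other lists without each library of CD9+ macrophages and neutrophils on day 1 were added after seeing the data.

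All members are given. Of each other list, at most the 3 called genes with the largest fold change are named for the comparisons over time and of CD9+ with CX3CR1+ macrophages, and for Nfkb1 and Nfkbia the 5 most correlated genes. The members and lists were chosen with earlier results of these data known.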

Additional observations from a re-analysis of the deposited data

Results flagged for a closer look

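For 8 of the 10 members the change over time differed among the 4 populations, against 14.7% of the genes tested. This rests on the F test of the interaction in edgeR's quasi-likelihood fit, adjusted over all genes tested. The adjusted p-values were 8.6e-06 for Tnfaip3, 2.7e-05 for Nfkbia, 0.00062 for Relb, 0.0013 for Nfkbie, 0.0046 for Nfkbiz, 0.0087 for Nfkb2, 0.011 for Rel and 0.044 for Rela. The log2 fold change of Tnfaip3 had the opposite sign in neutrophils (-3.17) and in F4/80- cells (1.31).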

How the results depend on the processing

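Of the log2 fold changes of single members in 8 comparisons, 306 kept their side of the thresholds when a library was left out, 4 passed newly and 10 no longer passed; under the other settings these numbers were 857, 9 and 14. Of these 1200 values 43 had another sign than in the report, all of them for members not called there, with log2 fold changes of at most 0.52 in size. In neutrophils 5 to 7 members were called over time when a library was left out and 6 to 9 under the other settings.

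Some counts of called members moved by more. Over time in CD9+ macrophages the count of 0 became 1 with scaling by library size only, 1 with the replicate block within each day and 3 with no threshold on the fold change, and it was 0 to 1 when a library was left out. In CX3CR1+ macrophages the count of 1 became 2 with no threshold on the fold change and 0 when tested against a fold change of 1.5. In F4/80- cells the count of 1 became 2 with the replicate block within each day and 0 when tested against a fold change of 1.5, and it was 0 to 1 when a library was left out. In CD9+ against CX3CR1+ macrophages the day 1 count was 0 to 1 when a library was left out, and with no threshold on the fold change the day 14 count of 1 became 4. In CD9+ macrophages against neutrophils on day 14 the count of 3 became 5 with no threshold on the fold change. The 13 called neighbours became 24 with no threshold on the fold change. For the interaction over all populations the count of 8 was 5 to 9 when a library was left out. For all genes tested, DESeq2 called 23.6% in this interaction and 3.66% between the macrophage populations, against 14.7% and 2.28% by edgeR. Beyond these settings, whose constructions differ in threshold, scaling or libraries, the cause was not tested.

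Libraries with the same replicate number on a day deviated together only weakly, with correlations of 0.013 to 0.14 of which 3 of 12 were above 0.1. The mice of the study were too few for a separate pool per library, so that libraries shared mice. The main fit took all libraries as independent, which the p-values between populations of a day and of the interaction rest on. Neither the labels nor the study's methods state which libraries share a pool. The replicate number was therefore kept as an alternative: as a block within each day it called Tnfaip3 in CD9+ macrophages and Nfkbiz in F4/80- cells over time, and no longer Nfkbie (-0.995) in CD9+ macrophages against neutrophils on day 1, where 8 members were called. A replicate block over all libraries left 6 called members over time in neutrophils. With a library left out, its group had a lone library, which was assumed to vary like the other groups. Pools of mice, 2 per group, and the level of Relb, down to 68 counts, limit the precision.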
